A study of Gallus gallus with 12 samples.

Results

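The 3 libraries labelled *fancj* were compared directly with the 3 libraries labelled *timeless*, 6 of the 12 poly(A) RNA-seq libraries of the series, chosen by their genotype labels. All came from DT40, a chicken B cell line that recombines its targeted loci readily and is widely used for gene disruption. The *fancj* line carries an earlier targeting-construct disruption of BRIP1, the gene that encodes the FANCJ helicase. The *timeless* line was made from wild-type DT40 by CRISPR-Cas9 cutting in the first exon of TIMELESS, and both of its alleles are disrupted by frameshifts. The *ddx11* and wild-type lines, with 3 libraries each, are given below for their levels only. Each library of a line came from a separate cell population. Several *timeless* clones were described and the sequenced one is not named. A trait that a single clone acquired and an effect of its disrupted gene cannot be told apart, and the p-values measure only the spread between populations.

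The guide that directed the cut in TIMELESS is shown because it defines the *timeless* line. Its 20 bases are printed 5′ to 3′ as listed in the study's oligonucleotides, with the 12 bases next to the PAM in capitals.
TIMELESS guide: cgacggcaTCGAAGAGGGTC

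Timeless is the core of the fork protection complex, which it forms with Tipin and which works with Claspin and AND-1 (encoded by WDHD1) to keep the replicative helicase coupled to DNA synthesis. FANCJ is an iron-sulphur helicase that unwinds G-quadruplexes (G4s), four-stranded structures that guanine-rich DNA can form. DDX11, a related helicase, acts with Timeless at G4s. When a fork stalls at a G4 near a promoter, the histone marks of the parental chromatin can be lost during replication, and expression of the gene can drift in the descendants of that cell. Both lines therefore lack a factor of the same process, and the direct comparison asks which genes the loss of 1 factor leaves at another level than the loss of the other.

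The expected counts summed to 22726834, 13406041 and 22929755 in *fancj* replicates 1, 2 and 3, and to 24169380, 15553647 and 17523763 in *timeless* replicates 1, 2 and 3. On a gene of 2 kb, 3 counts corresponded to 0.088 to 0.191 TPM in these libraries. Spearman's rank correlation between libraries of a line was 0.918 to 0.962 in *fancj* and 0.954 to 0.976 in *timeless*, and *fancj* replicate 3 was the library farthest from its own line. It held 10417 genes at 1 TPM or more, against 11285 and 11664 in *fancj* replicates 1 and 2. All 12 B cell markers examined were at a mean of 1 TPM or more in both lines, with summed levels of 572 to 1340 TPM in *fancj* and 935 to 1500 TPM in *timeless*. Of 5 myeloid markers measured, 3 reached a mean of 1 TPM in *fancj* (summed level 3.09 to 15.4 TPM) and 0 in *timeless* (0.1 to 1.37 TPM). Fibroblast and epithelial markers summed to 6.75 to 24.2 TPM in *fancj* and 7.05 to 8.57 TPM in *timeless*, with decorin at 0 in every library of both. On that list EPCAM was at 0, 1.97 and 2.51 TPM in *fancj* and 0.04, 0 and 0 TPM in *timeless*. LUM was at 0.12, 2.82 and 1.74 TPM in *fancj* and 0.42, 0.08 and 0.14 TPM in *timeless*. COL1A2 was at 22.6, 1.79 and 0.76 TPM in *fancj* and 3.98, 5.67 and 5.88 TPM in *timeless*. COL1A1 was lower in every *fancj* library than in every *timeless* library, with 1.33, 1.34 and 0.84 TPM in *fancj* and 2.42, 2.55 and 2.37 TPM in *timeless*. The defining endothelial genes KDR, CDH5 and VWF were at 0 throughout. T cell markers summed to 56.4 to 91.2 TPM in *fancj* and 53.1 to 126 TPM in *timeless*. Most of this was CD3D, at 52.73 to 85.03 TPM in *fancj* and 51.15 to 120.69 TPM in *timeless*. CD8A was at 12.24, 0 and 3.17 TPM in *fancj* and 0, 0.35 and 0 TPM in *timeless*. The 6 erythroid and thrombocyte markers summed to 40.1 to 51.0 TPM in *fancj* and 15.5 to 36.6 TPM in *timeless*, with the globin HBA1 at 0 in both. Most of this was ALAS2, at 30.42 to 40.0 TPM in *fancj* and 14.77 to 34.78 TPM in *timeless*. The globin HBBA was at 2.03, 10.78 and 10.84 TPM in *fancj* and 1.42, 0.26 and 0.90 TPM in *timeless*. No marker passed the test of all genes without pairing, and their part in the differences below was not tested.

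The disrupted genes were examined first. BRIP1 was at 7.81, 8.47 and 1.23 TPM in *fancj* replicates 1 to 3, against 8.52, 5.83 and 4.40 TPM in *timeless*. The wild-type libraries held 8.52, 5.16 and 6.59 TPM, so 2 of the 3 *fancj* libraries were at the wild-type level of BRIP1 and only replicate 3 was below every other library. The BRIP1 transcript therefore did not check the label of replicates 1 and 2. In replicate 3, TIMELESS, DDX11, CLSPN and WDHD1 were also at their lowest of the *fancj* and *timeless* libraries. The low BRIP1 there was thus shared with genes not disrupted in this line and does not check that label either. The libraries are called by their labels here. Gene-level values do not show whether the disrupted exons were transcribed. TIMELESS was at 30.48, 21.29 and 8.88 TPM in *fancj* and at 24.27, 21.39 and 22.57 TPM in *timeless*. All 6 values were below the 34.16 to 48.4 TPM of the wild-type libraries, and those of both lines overlapped. Against wild type, the log2 fold change of TIMELESS was -1.04 in *fancj* (adjusted p = 0.12) and -0.78 in *timeless* (adjusted p = 0.018). Neither transcript passed the direct test, with a log2 fold change of *fancj* over *timeless* of -0.27 ± 0.52 (SE) for BRIP1 and -0.26 ± 0.29 for TIMELESS (edgeR quasi-likelihood adjusted p = 0.84 and 0.72, n = 3 each).

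**Figure D1:**
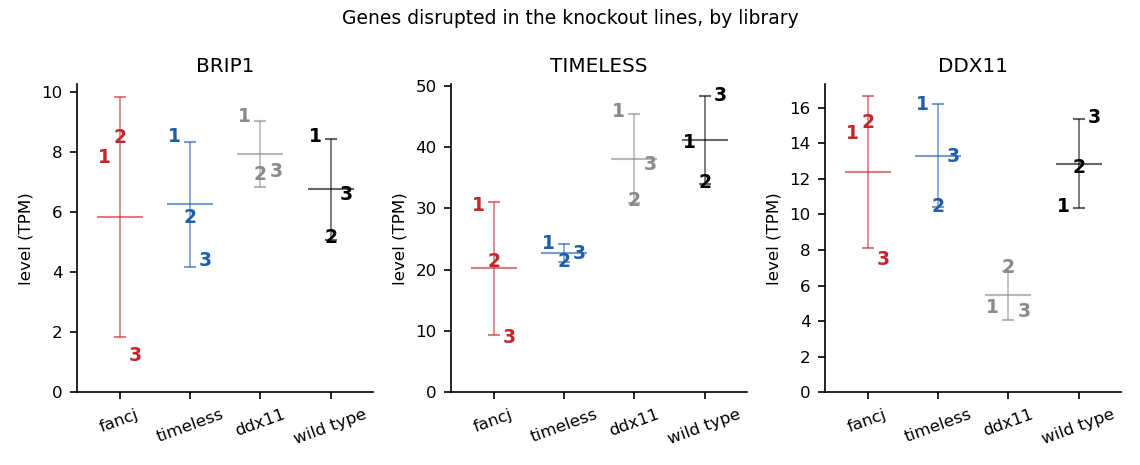
Level in TPM of BRIP1, TIMELESS and DDX11 in each library of the 4 lines; digits are replicate numbers, and horizontal marks with whiskers are the mean and SD of 3 libraries. BRIP1 was at 7.81 and 8.47 TPM in *fancj* replicates 1 and 2 and at 1.23 TPM in replicate 3, and TIMELESS was below the wild-type libraries in both *fancj* and *timeless*.

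The partners of Timeless did not pass the test either. DDX11 was at 14.55, 15.17 and 7.47 TPM in *fancj* and 16.19, 10.42 and 13.28 TPM in *timeless* (log2 fold change -0.18 ± 0.25, adjusted p = 0.78). Its level in the *ddx11* line was 4.53 to 7.03 TPM. TIPIN, which binds Timeless directly, was at 37.27, 39.89 and 37.66 TPM in *fancj* and 39.85, 19.72 and 35.42 TPM in *timeless* (log2 fold change 0.26 ± 0.34, adjusted p = 0.77). For Claspin (CLSPN), the mediator of checkpoint signalling, the mean was 14.2 ± 5.52 TPM in *fancj* and 15.5 ± 3.30 TPM in *timeless* (SD, n = 3 each, edgeR adjusted p = 0.74). For WDHD1 it was 20.9 ± 9.94 TPM in *fancj* and 22.2 ± 7.47 TPM in *timeless* (edgeR adjusted p = 0.82). Over these 6 libraries, DDX11, CLSPN and WDHD1 were each lowest in *fancj* replicate 3.

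Across all genes, 102 of 11995 tested passed the test (0.85%), and 50 of these were higher (0.417%) and 52 lower (0.434%) in the libraries labelled *fancj* than in *timeless*. A gene was called at an adjusted p under 0.05 in edgeR's quasi-likelihood test, and was tested when its mean reached 1 TPM in at least 1 of both lines. Unadjusted p-values under 0.05 were found for 1736 genes (14.5%). The differences called were large, with a median absolute log2 fold change of 3.76 and none under 1.35. All 102 genes had TPM values that did not overlap between the lines, as 2568 of the genes tested did (21.4%), 1629 of them higher (13.6%) and 939 lower (7.83%) in *fancj*. Of the genes higher in *fancj*, 30 had a *timeless* mean under 1 TPM, and of those lower in *fancj*, 23 had a *fancj* mean under 1 TPM. These genes entered the test through the other line alone, so the filter shapes how many such genes were called. Among the higher genes named below they include SPP1, VTN, CAV3, CCR9, LYPD6B, ASS1, ENPP2, ARG2, CACNA2D1 and GRIA2. Among the lower ones they include EFHD2, BCO2, DSCAM and CFAP36. With a mean of 1 TPM required in both lines, 49 of the 102 were tested and 13 were called.

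Same-numbered libraries of both lines deviated together from their line means. The labels do not say what a replicate number marks, and the pairing was taken from these same libraries. A fit that blocked on this number called 247 genes (2.06%), 157 higher (1.31%) and 90 lower (0.75%) in *fancj*. Among the 247 was ENSGALG00000050199, at 230.58 TPM in *fancj* replicate 3 and at 0 in the other libraries of both lines. Of the 102, 101 were called in that fit too, and CCR10 was lost (adjusted p = 0.052). The count rested on single libraries. It was 242, 2 and 158 without *fancj* replicate 1, 2 or 3, and 0 without any of the *timeless* replicates, where unadjusted p-values under 0.05 were found for 1199, 1430 and 1255 genes. The lowest adjusted p was then 0.061, 0.058 and 0.057 by edgeR. The DESeq2 Wald test called 847 genes in all 6 libraries and limma with quality weights 713. In each of these fits, every one of the 102 genes that was tested kept its direction and an unadjusted p under 0.05. The 102 were chosen by their p-values in these same libraries and did not overlap between the lines, so this is no independent check.

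The levels in the other lines were then set beside these genes. On the scale of the mean log2(TPM + 1), the wild-type level was nearer to *timeless* than to *fancj* for 40 of the 50, and it was between the lines or below both for 23 and 24 of them. Of the 52 lower genes, wild type was nearer to *timeless* for 36 and nearer to *fancj* for 16. The *ddx11* line was nearer to *timeless* for 32 of the 50 higher genes, but nearer to *fancj* for 36 of the 52 lower ones. Counted against wild type on their own, 506 of 11824 genes were called in *fancj* (4.28%) and 955 of 11653 in *timeless* (8.2%). Both of those comparisons use the same wild-type libraries. The number called also depends on the spread within a line, and libraries of a line correlated at 0.918 to 0.962 in *fancj* and 0.954 to 0.976 in *timeless*. The counts therefore do not rank the lines by their distance from wild type.

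The named higher genes are described by the kind of protein they encode, a grouping made after the values were seen. Secreted proteins were found in both directions, with JCHAIN among the lower genes. SPP1, which encodes the secreted phosphoprotein osteopontin, was at 1.49, 7.67 and 6.54 TPM in *fancj*, against 0.05, 0 and 0 TPM in *timeless*. With 250 counts in the *fancj* libraries and 1 in the *timeless* libraries, the ratio scaled for depth was 242 (95% interval 43.1 to 9610, counting error only). The fitted log2 fold change of 7.66 ± 1.18 depends on the prior count (adjusted p = 0.040) and was 9.41 without *timeless* replicate 1. VTN encodes vitronectin, an adhesive glycoprotein of plasma and matrix. Its level was 3.37, 24.92 and 12.04 TPM in *fancj* and 0, 0.12 and 0.11 TPM in *timeless* (log2 fold change 7.66 ± 1.10, adjusted p = 0.034, 6.95 without *timeless* replicate 1). ENPP2, or autotaxin, is the secreted enzyme that makes lysophosphatidic acid. It was at 9.70, 15.77 and 7.16 TPM in *fancj* and at 0.35, 0.46 and 0.57 TPM in *timeless*, a difference of 4.42 ± 0.41 on the log2 scale (adjusted p = 0.011). None of the 3 genes overlapped between the lines, which was a condition for naming them. In wild type SPP1 and VTN did not exceed 0.15 TPM.

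The named higher genes that encode membrane proteins are described next, grouped after their values were seen; DSCAM and TNFRSF25, also of the cell surface, were lower. CAV3, a caveolin of muscle, was at 11.52, 2.40 and 3.51 TPM in *fancj* and at 0.06, 0 and 0 TPM in *timeless*. Its 251 counts against 1 gave a ratio of 243 (43.3 to 9650), and the fitted log2 fold change of 7.40 ± 1.09 (adjusted p = 0.034) was 6.66 without *fancj* replicate 1 and 9.15 without *timeless* replicate 1. The chemokine receptor CCR9, which binds CCL25, was at 14.37, 4.17 and 2.01 TPM in *fancj* and at 0.11, 0 and 0.07 TPM in *timeless*. Here 306 counts stood against 3, a ratio of 98.9 (33.5 to 482), with a fitted log2 fold change of 6.39 ± 1.02 (adjusted p = 0.042) that was 5.36 and 6.99 without replicate 1 of *fancj* and of *timeless*. LYPD6B, a small surface protein of the Ly6 family, reached 71.97, 17.71 and 13.86 TPM in *fancj*, against 0.17, 0.43 and 0.58 TPM in *timeless* (6.32 ± 0.82, adjusted p = 0.028, 5.37 without *fancj* replicate 1). KCND1 encodes the Kv4.1 subunit of A-type potassium channels. It was at 70.75, 14.42 and 15.62 TPM in *fancj*, 0.37, 1.65 and 1.09 TPM in *timeless* and 9.0 to 12.94 TPM in *ddx11* (4.92 ± 0.82, adjusted p = 0.045, 3.99 without *fancj* replicate 1). All 4 were highest in *fancj* replicate 1. EMP1, a membrane protein of the PMP22 family, was more even over the replicates, with 13.06, 27.58 and 16.85 TPM in *fancj* and 1.16, 1.56 and 1.40 TPM in *timeless* (3.78 ± 0.41, adjusted p = 0.016). Wild type held 0.1 to 0.21 TPM of EMP1, below every library of both lines.

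The gene with the highest level among those raised was PPDPF, named for its part in exocrine pancreas differentiation in zebrafish. It was at 240.57, 979.33 and 1041.06 TPM in *fancj* and at 6.69, 16.76 and 5.34 TPM in *timeless*, 4.27 to 6.54 TPM in wild type and 59.23 to 157.06 TPM in *ddx11*. The log2 fold change was 6.42 ± 0.85 (adjusted p = 0.030) and was 5.76 without *fancj* replicate 3 and 7.08 without *timeless* replicate 2. The counts behind it summed to 20534 in *fancj* and 242 in *timeless*.

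Enzymes of arginine metabolism were among the named genes, a grouping made after their values were seen. ASS1, argininosuccinate synthase, was at 4.08, 12.85 and 13.03 TPM in *fancj* and at 0.04, 0.31 and 0.21 TPM in *timeless* (5.84 ± 0.90, adjusted p = 0.040). ARG2, the mitochondrial arginase, was at 9.25, 12.02 and 12.85 TPM in *fancj* and at 1.18, 0.84 and 0.95 TPM in *timeless* (3.57 ± 0.47, adjusted p = 0.028). The wild-type levels differed in kind: ASS1 was at no more than 0.15 TPM in wild type, like *timeless*, whereas ARG2 was at 3.80 to 7.73 TPM there, nearer to *fancj*.

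ARG2 shared that order with other named genes. MARCH3, a membrane-bound ubiquitin ligase, was at 15.28, 25.55 and 30.13 TPM in *fancj*, 0.92, 2.55 and 1.71 TPM in *timeless* and 11.97 to 19.12 TPM in wild type (3.85 ± 0.61, adjusted p = 0.042). PLIN4, a coat protein of lipid droplets, was at 16.73, 12.94 and 11.55 TPM in *fancj*, 0.46, 1.30 and 1.30 TPM in *timeless* and 9.35 to 14.56 TPM in wild type (3.74 ± 0.53, adjusted p = 0.033). Both were low in *timeless*. Against wild type, the log2 fold change of PLIN4 was 0.16 in *fancj* (adjusted p = 0.80) and -3.59 in *timeless* (adjusted p = 0.0034). That of MARCH3 was 0.69 in *fancj* (adjusted p = 0.49) and -3.16 in *timeless* (adjusted p = 0.0045), and that of ARG2 was 0.93 in *fancj* (adjusted p = 0.34) and -2.63 in *timeless* (adjusted p = 0.0072). Every *fancj* library was above every wild-type library for ARG2. CDKN2B, which encodes the cyclin-dependent kinase inhibitor p15, had 24.55, 27.59 and 28.98 TPM in *fancj*, 2.49, 4.19 and 2.38 TPM in *timeless* and 7.23 to 15.18 TPM in wild type. It was the only one of 29 genes tested on the list of cell cycle engines to pass (3.21 ± 0.41, adjusted p = 0.028), and the wild-type range lay between those of both mutants. The share called higher over all genes tested was 0.417%.

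RBP5, a cytosolic retinol carrier, and CAPN3, a calpain protease of skeletal muscle, had low wild-type levels. RBP5 was at 18.31, 13.95 and 25.0 TPM in *fancj* and 1.42, 1.72 and 1.13 TPM in *timeless* (3.85 ± 0.56, adjusted p = 0.034), and at 0 to 0.42 TPM in wild type. CAPN3 was at 21.43, 22.22 and 10.0 TPM in *fancj* and 1.26, 2.38 and 1.11 TPM in *timeless* (3.41 ± 0.38, adjusted p = 0.017), and at 0.38 to 0.42 TPM in wild type. Every library of both lines was above wild type for these genes, and those of *fancj* were higher still. On the lists of ion channel and synaptic genes, with 19 and 11 tested, only CACNA2D1 and GRIA2 were called higher, at low levels. The share called higher over all genes tested was 0.417%. The channel gene KCND1, called higher at larger levels as described above, was not on these lists. CACNA2D1 is an auxiliary subunit of voltage-gated calcium channels and GRIA2 an AMPA receptor subunit. CACNA2D1 was at 2.36, 1.09 and 0.90 TPM in *fancj* and 0.11, 0.08 and 0.09 TPM in *timeless* (3.89 ± 0.51, adjusted p = 0.028). GRIA2 was at 0.73, 1.81 and 1.05 TPM in *fancj* and 0.03, 0.05 and 0.06 TPM in *timeless* (4.84 ± 0.66, adjusted p = 0.033).

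**Figure D2:**
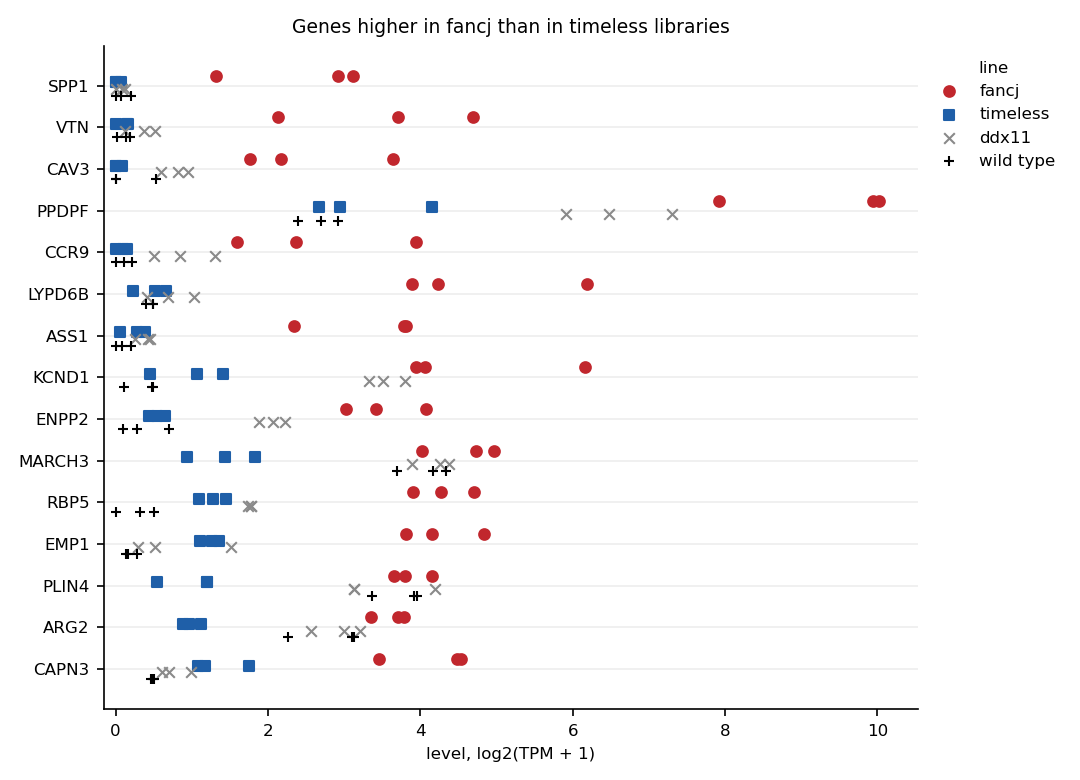
Level on the log2(TPM + 1) scale of the 15 named genes with the largest increase in *fancj*, ordered by fold change; each symbol is 1 library. The *fancj* circles lie to the right of the *timeless* squares in every row, since only genes without overlap were eligible. For MARCH3, PLIN4 and ARG2 the wild-type crosses lie nearer to the *fancj* circles than to the *timeless* squares.

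Among the genes lower in *fancj*, several are known from antibody-secreting B cells; this grouping was also made after the values were seen. IRF4, a transcription factor needed for plasma cell differentiation, was at 26.44, 28.98 and 15.52 TPM in *fancj* and 90.38, 92.66 and 86.02 TPM in *timeless* (-2.00 ± 0.20, adjusted p = 0.015). JCHAIN, the chain that joins polymeric immunoglobulins, was at 141.66, 36.73 and 30.15 TPM in *fancj*, against 711.73, 1529.55 and 802.01 TPM in *timeless* (-3.98 ± 0.63, adjusted p = 0.042, and -4.84 without *fancj* replicate 1). TENT5C, a cytoplasmic poly(A) polymerase of plasma cells, was at 9.64, 9.53 and 1.73 TPM in *fancj* and 51.44, 47.03 and 32.98 TPM in *timeless* (-2.82 ± 0.47, adjusted p = 0.046). In each case every *fancj* library was below every *timeless* and every wild-type library. In *ddx11*, IRF4 was at 53.13, 24.78 and 31.06 TPM and so overlapped *fancj*. JCHAIN (254.17 to 764.77 TPM) and TENT5C (17.63 to 20.86 TPM) were above *fancj* in every *ddx11* library. ARID3A, which binds the immunoglobulin heavy-chain locus in B cells, was at 37.39, 50.28 and 19.67 TPM in *fancj* and 147.92, 161.89 and 126.1 TPM in *timeless* (-2.12 ± 0.24, adjusted p = 0.019). Wild type held 32.95, 173.48 and 143.25 TPM of ARID3A and so spanned both lines. The *ddx11* libraries held 30.65, 40.07 and 30.15 TPM of it, within the *fancj* range.

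Of the 18 genes tested on the list of B cell identity factors, IRF4 was called lower and none was called higher. The shares called over all genes tested were 0.434% lower and 0.417% higher. Of the 18, 14 had a negative log2 fold change. The list's median was -0.39 (-0.17 without *fancj* replicate 3), against 0.004 over all genes. With the replicate block IRF8 was called too. IRF8, a partner of PU.1 in germinal-centre B cells, was at 302.92, 174.49 and 139.57 TPM in *fancj* and 782.85, 418.34 and 1060.05 TPM in *timeless* (-1.95 ± 0.42, adjusted p = 0.094, and 0.034 with the block). Its wild-type level was 84.33 to 125.94 TPM, below every library of both lines. PRDM1, which encodes Blimp-1, did not pass, at 0.36, 1.34 and 0.09 TPM in *fancj* and 6.25, 3.76 and 3.89 TPM in *timeless* (adjusted p = 0.11). Nor did RAG2, a subunit of the V(D)J recombinase, which had 3.94, 2.39 and 1.90 TPM in *fancj* and 0.19, 0.48 and 0.04 TPM in *timeless* (3.51 ± 0.78, adjusted p = 0.098). The values of both genes did not overlap between the lines. None of the 21 genes tested on the list of B cell receptor signalling was called, and 18 had a negative log2 fold change (median -0.32, and -0.14 without *fancj* replicate 3).

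Of 22 genes tested on the cytokine and JAK-STAT list, 1 was called, and it was lower, as were 0.434% of all genes tested. That gene was STAT4, which carries interleukin-12 signals in T and NK cells. It was at 5.24, 1.20 and 0.86 TPM in *fancj* and 52.69, 32.45 and 24.69 TPM in *timeless*, against 0.15 to 0.48 TPM in wild type (-3.99 ± 0.64, adjusted p = 0.043, and -5.06 without *fancj* replicate 1). Both lines were thus above wild type. TNFRSF25, or death receptor 3, had its highest values in *timeless*, with 17.15, 18.88 and 11.53 TPM in *fancj*, 43.54, 61.74 and 45.81 TPM in *timeless* and 12.96 to 14.28 TPM in wild type (-1.72 ± 0.25, adjusted p = 0.034). PPP1R9B, the phosphatase scaffold spinophilin, was at 35.59, 27.41 and 13.23 TPM in *fancj*, 129.68, 81.71 and 85.8 TPM in *timeless* and 16.75 to 17.71 TPM in wild type (-1.99 ± 0.27, adjusted p = 0.033).

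DSCAM, an adhesion molecule of neurons, had the lowest adjusted p of the named genes. Its mean in *fancj* was 0.57 TPM, so it entered the test through *timeless* alone. It was at 0.55, 0.88 and 0.28 TPM in *fancj* and 11.66, 8.77 and 7.74 TPM in *timeless*, and at 24.92 to 46.55 TPM in wild type (-4.15 ± 0.35, adjusted p = 0.0088). Both mutants were below wild type and *fancj* was the lower. NEUROD6, a neuronal bHLH factor, was at 1.45, 1.55 and 1.15 TPM in *fancj*, 10.74, 9.89 and 7.67 TPM in *timeless* and 6.18 to 7.94 TPM in wild type (-2.76 ± 0.34, adjusted p = 0.024). On the adhesion list, 11 of 34 genes were tested and DSCAM alone was called. The list of neuronal and synaptic genes had 1 of its 11 tested members called higher (GRIA2) and 1 called lower (DSCAM). The shares called over all genes tested were 0.417% higher and 0.434% lower, and single calls on such short lists are no result about the function.

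Other named lower genes act on the actin cytoskeleton, a grouping made after the values were seen; PLS3, an actin-bundling plastin outside the naming rule, was called in the other direction (log2 fold change 2.58, adjusted p = 0.045). FMNL1, a formin of haematopoietic cells, was at 23.85, 20.26 and 12.03 TPM in *fancj*, 117.15, 133.63 and 99.91 TPM in *timeless* and 97.66 to 140.89 TPM in wild type (-2.73 ± 0.25, adjusted p = 0.0097). EFHD2, a calcium-binding regulator of actin, was at 0.13, 1.33 and 0.76 TPM in *fancj* and 18.68, 24.14 and 28.18 TPM in *timeless* (-5.04 ± 0.74, adjusted p = 0.034). It was at 8.22 to 15.37 TPM in wild type but at 0.26 TPM in all 3 *ddx11* libraries. ARHGAP27, a GTPase-activating protein, was at 1.77, 2.11 and 1.13 TPM in *fancj* and 6.91, 9.40 and 6.60 TPM in *timeless* (-2.23 ± 0.31, adjusted p = 0.033). Its *ddx11* level of 1.20 to 1.28 TPM was within the *fancj* range, whereas FMNL1 was at 90.46 to 99.62 TPM in *ddx11*.

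The other named lower genes had other roles. BCO2, which cleaves carotenoids, was at 0.42, 0.26 and 0.21 TPM in *fancj* and 4.81, 6.53 and 4.21 TPM in *timeless* (-4.17 ± 0.46, adjusted p = 0.016). CFAP36, a cilium-associated protein, was at 0.48, 1.33 and 1.15 TPM in *fancj* and 10.42, 14.63 and 12.96 TPM in *timeless* (-3.87 ± 0.58, adjusted p = 0.037, and -4.56 without *fancj* replicate 3). PRKCZ, an atypical protein kinase C, was at 2.95, 3.79 and 1.83 TPM in *fancj* and 9.68, 9.53 and 9.45 TPM in *timeless* (-1.93 ± 0.30, adjusted p = 0.042). None of these values overlapped between the lines, which was a condition for naming these genes. In *ddx11*, BCO2 was at 0.49 to 0.61 TPM, CFAP36 at 8.84 to 9.33 TPM and PRKCZ at 6.27 to 7.52 TPM.

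**Figure D3:**
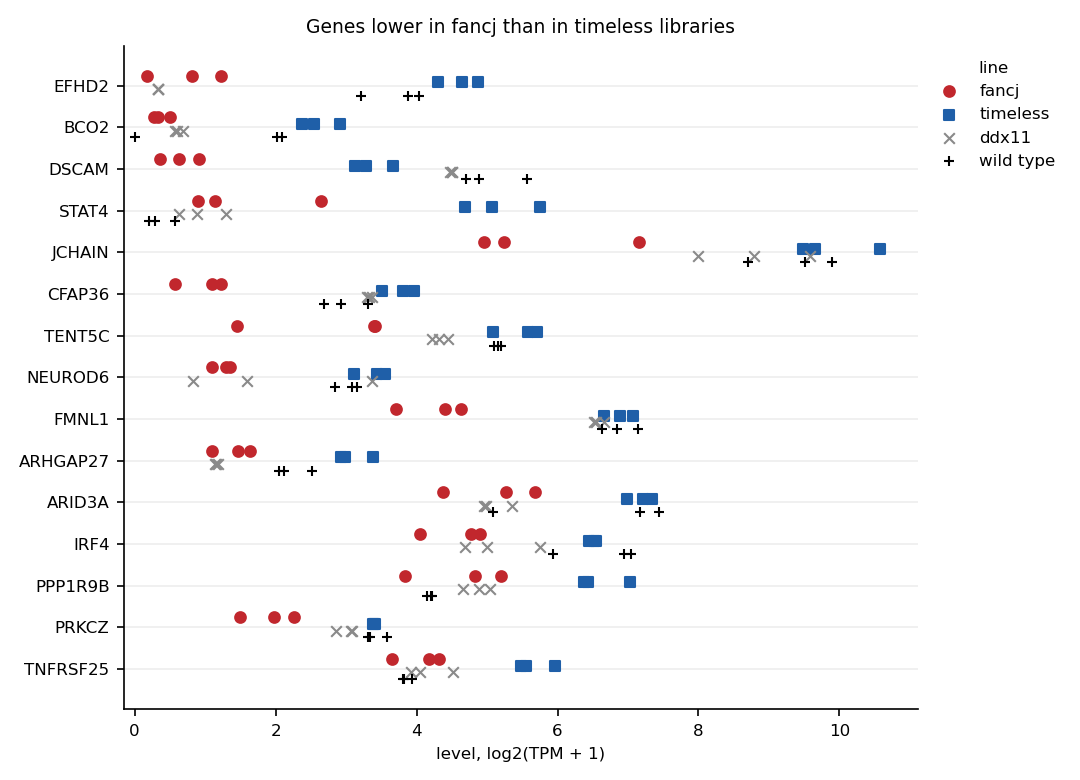
Level on the log2(TPM + 1) scale of the 15 named genes with the largest decrease in *fancj*, ordered by fold change; each symbol is 1 library. The *fancj* circles lie to the left of the *timeless* squares in every row, since only genes without overlap were eligible. Wild type lies near *timeless* for FMNL1 and TENT5C and near *fancj* for PPP1R9B and TNFRSF25.

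Identifiers without a symbol were 11 of the 50 higher and 28 of the 52 lower genes. ENSGALG00000051234 had 0, 0 and 0.78 TPM in *fancj*, 705.17, 229.68 and 448.54 TPM in *timeless* and no more than 1.08 TPM in wild type (-10.03 ± 0.91, adjusted p = 0.0097, and -13.57 without *fancj* replicate 3). ENSGALG00000053164 had 0.07, 0 and 0 TPM in *fancj* and 7.06, 6.05 and 5.31 TPM in *timeless*, with 2 counts against 507. The higher identifiers followed another order. ENSGALG00000051177 was at 71.79, 46.9 and 14.63 TPM in *fancj*, 0.70, 0 and 0 TPM in *timeless* and 337.05 to 885.15 TPM in wild type, a ratio of 137 of 424 counts to 3 (46.6 to 667). ENSGALG00000049938 was at 112.26, 81.26 and 15.56 TPM in *fancj*, 1.19, 0 and 1.02 TPM in *timeless* and 444.18 to 1389.7 TPM in wild type (6.29 ± 0.93, adjusted p = 0.034). Both were lower than wild type in both mutants and lowest in *timeless*. An abundant lower gene without a symbol, ENSGALG00000051946, singled out for its level, was at 1645.11, 916.98 and 513.67 TPM in *fancj* and 14322.62, 4909.01 and 12399.08 TPM in *timeless*. For 39.2% of the genes called, against 23.7% of those tested, the deposited expected count was not a whole number in at least 1 library, which RSEM gives where reads also fit other transcripts. Their levels are uncertain to that extent, and SPP1, VTN, PLIN4, ARG2, ARID3A, GRIA2 and CDKN2B are among the called ones. The counts of TIMELESS and TIPIN, which were not called, were not whole either.

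Functional lists were examined for differences spread over many genes. Members and lists were chosen with earlier results of these data known, so the shares called below are no test against all genes. Over 27 lists with 529 genes tested, 7 genes were called (1.32%, against 0.85% of all genes tested), 4 higher (CACNA2D1, GRIA2, CDKN2B and CAPN3) and 3 lower (IRF4, STAT4 and DSCAM). With the block 11 were called (2.08%, against 2.06%), the additions being IRF8, which was lower, and IFI6, COL18A1 and DNAJB6, which were higher (adjusted p = 0.045, 0.019 and 0.046 with the block). IFI6 was at 0.13, 2.97 and 4.58 TPM and COL18A1 at 0.23, 8.42 and 1.06 TPM in *fancj*, each at no more than 0.02 TPM in *timeless*. DNAJB6 was at 106.32, 95.69 and 63.34 TPM in *fancj* and 44.57, 37.74 and 37.93 TPM in *timeless*. No gene was called on the lists for the fork protection complex (4 tested), the Fanconi anaemia pathway (20), helicases that unwind G4s (9), translesion synthesis (11), the replication checkpoint (12) and the replisome (30). Their medians lay between -0.30 and 0.06 on the log2 scale. FAN1, a nuclease of crosslink repair, was the lowest Fanconi gene, with 6.45, 8.79 and 4.39 TPM in *fancj* and 10.7, 13.74 and 11.81 TPM in *timeless* (-0.94 ± 0.27, adjusted p = 0.17). That none passed does not show that these genes were at equal levels.

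The list of the amino acid and unfolded protein responses had a median of -0.66 over 22 genes and 0 called. It was the lowest median of the 27, but with the block it was -0.34, above those of extracellular matrix (-0.58), calcium and cyclic nucleotide signalling (-0.47) and B cell identity (-0.39). By library, the list's median log2(TPM + 1) was 5.92, 7.3 and 5.34 in *timeless* and 5.48, 5.69 and 5.74 in *fancj*. Only *timeless* replicates 1 and 2 were thus above the *fancj* libraries, and replicate 3 was below them all. HERPUD1, a factor of endoplasmic reticulum-associated degradation, was at 27.39, 29.64 and 27.91 TPM in *fancj* and 58.05, 101.29 and 54.58 TPM in *timeless* (-1.25 ± 0.34, adjusted p = 0.15). On the same list DDIT4, an inhibitor of mTORC1, had the opposite sign, with 752.01, 289.6 and 521.42 TPM in *fancj* and 137.1, 147.97 and 98.76 TPM in *timeless* (2.07 ± 0.42, adjusted p = 0.083). Glycolysis and hypoxia genes had a median of 0.40 over 25 tested, 20 of them positive and 0 called. LDHA, lactate dehydrogenase A, was at 1213.63, 783.32 and 736.15 TPM in *fancj* and 561.41, 455.42 and 540.35 TPM in *timeless* (0.79 ± 0.28, adjusted p = 0.25). The values of 8 of the 25 were higher in every *fancj* than in every *timeless* library, a pattern that 13.6% of all genes tested had.

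**Figure D4:**
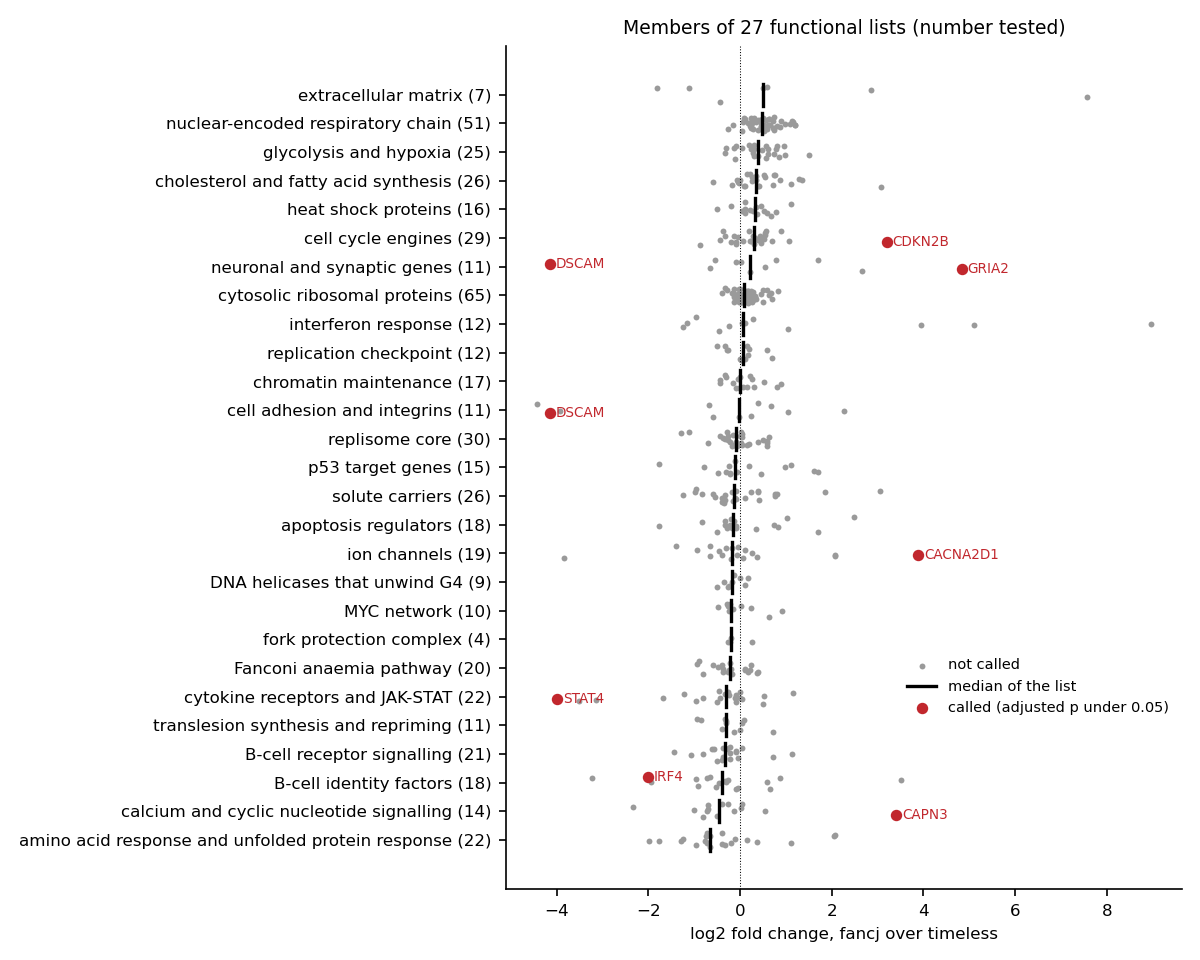
Log2 fold change of *fancj* over *timeless* for each gene tested on 27 functional lists, ordered by the list's median (black bars); red points are genes called at an adjusted p under 0.05. Of the 529 genes 7 are called, and medians run from -0.66 to 0.49; the highest, of the 7 extracellular matrix genes, is -0.58 with the replicate block.

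Nuclear-encoded subunits of the respiratory chain had a median of 0.47 over 51 genes, 49 of them positive and 0 called. Their summed level was 13400, 13800 and 20200 TPM in *fancj* replicates 1, 2 and 3, against 12000, 10600 and 12300 TPM in *timeless* and 12800 to 13200 TPM in wild type. The sum was highest in *fancj* replicate 3, and without that library the median turned to -0.10. Cytosolic ribosomal protein genes behaved likewise, with a median of 0.08 over 65 genes that was -0.45 without *fancj* replicate 3. Their summed level was 161000, 140000 and 227000 TPM in *fancj* and 138000, 211000 and 155000 TPM in *timeless*, so *timeless* replicate 2 was high too. On both lists the members with the largest fold change shared a chromosome. NDUFA4, NDUFV2, COX6C, UQCRB, SDHA, NDUFS6 and NDUFB9, with log2 fold changes of 0.90 to 1.20, were the first 7 of the 51 respiratory genes, and RPLP1, RPL30, RPL14, RPL7 and RPS20 (0.58 to 0.82) the first 5 of the 65 ribosomal genes. All 12 lie on the same chromosome of the GRCg7b assembly.

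That chromosome differed between the lines along its whole length. Of 8629 tested genes that matched 1 chromosome by symbol, 717 lay on it (8.31%), and their median log2 fold change was 0.65, against 0.02 for all others. The other 26 chromosomes with at least 100 genes had medians of -0.15 to 0.107. The log2 fold change was positive for 87.9% of its genes and for 51.5% elsewhere, and 43.1% of its genes were higher in every *fancj* than in every *timeless* library, against 12.2% elsewhere. In each of 10 successive groups of its genes, taken in map order, the median was between 0.52 and 0.80. It stayed between 0.63 and 0.70 when any 1 library was left out, and was 0.63 with the block.

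By library, the shift lay in *timeless*. The median log2 level of the chromosome's genes relative to the wild-type mean, minus that of all other genes, was 0.058, 0.084 and 0.115 in *fancj* and -0.50, -0.509 and -0.519 in *timeless*. It was between -0.027 and 0.012 in the *ddx11* and wild-type libraries. The chromosome gave 10.6, 10.2 and 11.2% of the TPM of matched genes in *fancj* and 7.09, 8.02 and 6.88% in *timeless*. Few of its genes passed the test singly, 5 higher and 2 lower in *fancj*, but with the block 38 of the 119 matched genes called higher were on it. The named genes CCR9, ENPP2, NEUROD6 and IRF4 lie there, and their log2 fold changes of 6.39, 4.42, -2.76 and -2.00 were larger than the chromosome's median or had the opposite sign. EZH2 and CBX3, chromatin proteins of the Polycomb and heterochromatin systems, had 0.81 and 0.90 and were the first 2 of their list, and the sterol genes INSIG1, CYP51A1 and SQLE had 1.35, 1.29 and 1.10. IFI6 and DNAJB6, called only with the block, lie there too and had 8.97 and 1.1 without it. The part of the chromosome-wide shift in these values was not tested. Called genes also shared other chromosomes, singled out here after their counts were seen. EFHD2, PRKCZ, TNFRSF25 and HSPG2 lay on 1 where 4 of 146 matched genes were called lower and 0 higher. FMNL1, ARHGAP27 and CCR10 lay on the chromosome at -0.15, with 3 of 152 called lower and 0 higher. Another had 4 of 370 called higher and 0 lower. Over all genes tested, 0.417% were called higher and 0.434% lower.

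**Figure D5:**
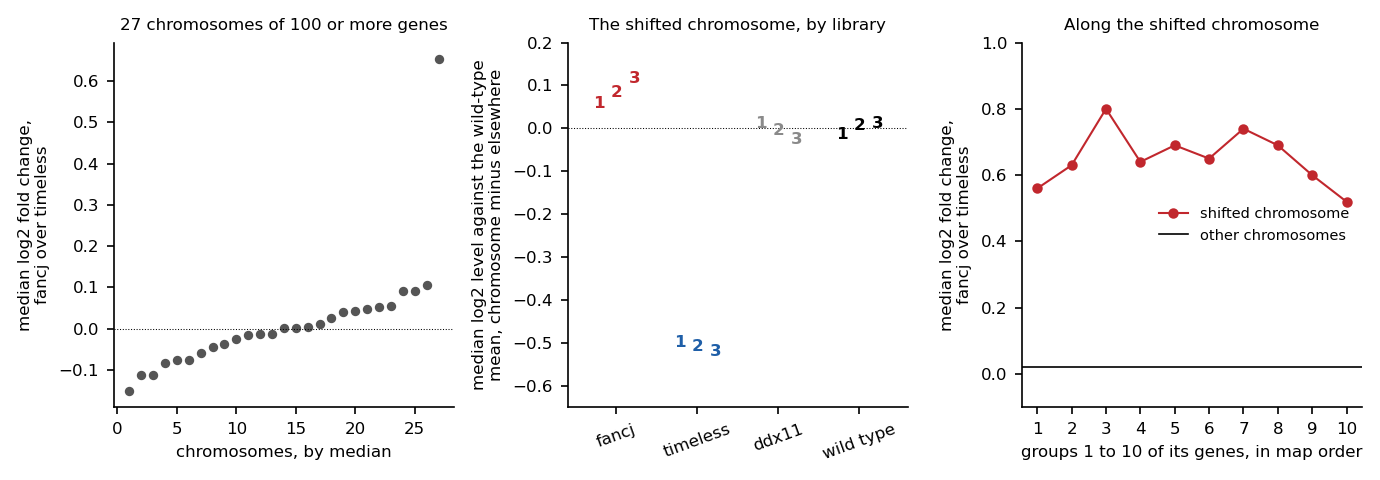
Left, median log2 fold change of *fancj* over *timeless* for each of 27 chromosomes; centre, for each library, the median log2 level of the genes on the chromosome at 0.65 relative to the wild-type mean, minus that of all other genes (digits are replicates); right, the median log2 fold change in 10 successive groups of that chromosome's genes. The 3 *timeless* libraries sit at -0.50 to -0.519 and all others near 0, and every group on the right lies between 0.52 and 0.80.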

How the data were processed

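RNA was measured in 3 cell populations of each of 4 DT40 lines, grouped by their labels. The authors aligned reads to GRCg6a with Bowtie 2 and ran RSEM with the Ensembl 96 annotation, from an unstranded kit, so overlapping genes cannot be told apart; tool versions are not given in the sources used here. The deposited expected counts are estimates that need not be whole and are not normalized; the authors' TPM values are scaled to gene length and a fixed total. Deposited FPKM values were not used. Intervals cover counting error only.

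Expected counts were rounded and tested over the 6 libraries in R 4.3.3 with edgeR 4.0.16 (TMM, quasi-likelihood test, Benjamini-Hochberg adjustment, adjusted p under 0.05, mean of at least 1 TPM in 1 line); the SE is the absolute log2 fold change over the square root of F. The test was run on simulated counts with the same spread for all genes and no replicate effect. That run does not check the test for the real libraries. Same-numbered libraries had correlated deviations (r = 0.272, 0.183 and 0.388 over 11995 genes) and for that reason were taken as pairs in an alternative fit. No label gives such a pairing. Others used DESeq2 1.42.0, limma 3.58.1, other filters and left-out libraries. Named genes were 6 of the fork protection and helicase system, the 15 highest and 15 lowest called genes with a symbol, no overlap and at least 5 TPM, called list members, and 2 identifiers each way. Members and lists were chosen with earlier results of these data known. Of 8975 tested symbols, 8629 matched 1 chromosome in RefSeq's GRCg7b table. Promoter sequence was not analysed here.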

Additional observations from a re-analysis of the deposited data

How the results depend on the processing

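The number of genes called was 102 and moved with most choices. It was 13 with 1 TPM required in both lines, where 49 of the 102 were still tested, 265 without a TPM limit, 847 by the DESeq2 Wald test, 713 by limma with quality weights, 802 with all 12 libraries in 1 fit, 247 with the replicate block and 6 at an adjusted p under 0.01. With DESeq2 size factors and filterByExpr it was 101 and 119. Leaving out 1 library gave 0 to 242. Without replicate 3 of both lines, chosen after seeing the data, it was 0, with 1600 genes at an unadjusted p under 0.05. Beyond the 146 genes it added and CCR10, which it lost, the block changed no other call. Of 37 called genes named, 35 were called without *fancj* replicate 1, 36 without replicate 3, 1 (DSCAM) without replicate 2 and 0 without a *timeless* replicate. The signs of the 37 were kept throughout, which their lack of overlap in these same libraries made likely. Uncalled values near 0 changed sign: TIMELESS was 0.01 without replicate 3 of both lines, BRIP1 0.17 without *fancj* replicate 3 and 0.01 without replicate 3 of both lines, TIPIN -0.13 with quality weights, CLSPN 0.01 without replicate 3 of both lines, and WDHD1 0.06 without *fancj* replicate 3 and 0.05 without *timeless* replicate 1. Over all fits that left out 1 library, BRIP1 ran from -0.54 to 0.17 and WDHD1 from -0.38 to 0.06. The cause was not tested. Depth limits the folds of genes with a few counts in 1 line.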

Other observations

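With the replicate block, 107 further genes were called higher and 39 lower in *fancj*. A call in that fit can rest on 1 library. ENSGALG00000050199 was at 0, 0 and 230.58 TPM in *fancj* and at 0 in *timeless* (edgeR adjusted p = 0.0092 with the block and 0.3 without). Several of the 107 higher genes were raised in *fancj* replicates 2 and 3 and much lower in replicate 1. Those named here were singled out after their values were seen. S100A1, a calcium-binding protein, was at 1.41, 51.82 and 70.71 TPM in *fancj* replicates 1, 2 and 3 and at 0, 0.23 and 0.20 TPM in *timeless* (edgeR adjusted p = 0.0064 with the block and 0.089 without). WFDC2, a secreted protein of epithelia, was at 0.13, 33.98 and 49.42 TPM in *fancj* and at 0, 0 and 0.15 TPM in *timeless* (edgeR adjusted p = 0.0064 with the block and 0.12 without). The transcription factor CEBPD was at 4.59, 82.46 and 73.26 TPM in *fancj* and at 0.79, 1.07 and 3.27 TPM in *timeless*. Genes of lipid and alcohol metabolism shared this order. LIPC, hepatic lipase, was at 0, 65.24 and 17.08 TPM in *fancj* and at no more than 0.06 TPM in *timeless*, and APOC3, an apolipoprotein, at 4.63, 25.24 and 31.35 TPM in *fancj* and at no more than 1.02 TPM in *timeless*. ADH1C, an alcohol dehydrogenase, was at 1.26, 40.99 and 26.66 TPM in *fancj* and at no more than 0.52 TPM in *timeless*. The myeloid marker CSF1R was at 0.54, 3.67 and 1.09 TPM in *fancj*, highest in replicate 2, and at no more than 0.26 TPM in *timeless*. The part of any other cell type in these values was not tested.

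Some called genes outside the naming rule had no count in 1 line. DGKB, a diacylglycerol kinase, was at 1.65, 9.53 and 2.20 TPM in *fancj* and at 0 in all 3 *timeless* libraries, at least 114-fold higher when 3 counts are allowed over the *timeless* line. HOXA4, a homeobox gene, was at 1.74, 3.21 and 2.49 TPM in *fancj* and at 0 in *timeless*, at least 67.2-fold higher on the same floor. The reverse order was seen in ENSGALG00000006104, which was at 0 in all *fancj* libraries and at 3.32, 3.85 and 2.70 TPM in *timeless*, at least 77-fold lower in *fancj*.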
